A study of Mus musculus with 8 samples.

Results

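The 10 genes described here are expressed after meiosis, in haploid spermatids. They were the protamine genes *Prm1*, *Prm2* and *Prm3*, the transition protein genes *Tnp1* and *Tnp2*, the acrosome genes *Acrv1*, *Acr* and *Spaca1*, and the sperm tail genes *Odf1* and *Akap3*. They were chosen as a list of known spermatid genes, not from a measured value, though earlier results of these data were known. The annotation holds 21951 protein-coding genes, of which 20807 are autosomal. All 10 of the chosen genes lie on autosomes. The question asked of each was whether its promoter was already accessible at pachynema. Whether any of them is also transcribed at that stage was not tested here.

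Accessibility was measured by ATAC-seq, in which sequencing adapters are cut into accessible DNA by a transposase, in pachytene spermatocytes, the male germ cells in the long middle stage of meiotic prophase. There were 4 *Arid1a* WT and 4 *Arid1a* cKO libraries. ARID1A is a subunit of the BAF chromatin remodeler that binds DNA. Animals of both groups carried floxed *Arid1a* alleles on a CD1 background. The WT animals were *Arid1a* fl/fl or fl/+ without Cre, and the cKO animals were *Arid1a* fl/fl; *Stra8-Cre* Tg/0, in which Cre is active from spermatogonia onwards. Excision was incomplete, so the cKO cells include some that kept ARID1A. Per the methods of the study, cells came from the combined testes of a number of adult males and were enriched by sedimentation through an albumin gradient (Sta-Put), and fractions rich in pachytene cells under the microscope were pooled and frozen. The libraries were made from such frozen aliquots, and whether the 4 libraries of a genotype came from separate pools is not given in the sources used here.

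Each genotype was represented by 1 peak list, made from all 4 of its libraries. No value below therefore has a spread between replicates, and no difference between the lists was tested. A row of a list is a stretch of a peak of a reference library that overlapped another library. Rows that share a name were merged into their full span, so that 52419 rows gave 19309 WT peaks and 84006 rows gave 30244 cKO peaks. The fold enrichment of a peak is the fragment pileup at its highest point, the summit, over the background of the reference library, with 1 added to both. For WT that background was 4.33 fragments per base, and for cKO 5.11. The median fold enrichment was 5.25 in WT and 4.91 in cKO, and the lowest was 2.63 and 2.45, respectively. Promoters of all 10 markers of pachytene spermatocytes held a peak in both lists. Of 5 spermatogonial markers, 0 had a promoter peak in WT and 2 in cKO (*Kit* and *Zbtb16*). Of 5 Sertoli cell markers, *Amh* had a promoter peak in both lists, and *Wt1* and *Cldn11* had a promoter peak in cKO alone. The *Amh* peaks were unlike, 420 bp wide with a fold enrichment of 3.19 in WT and 4830 bp wide with 13.4 in cKO. A stronger WT peak, of 9.57, lay 200 bp from the *Amh* start, outside the promoter, so the 2 promoter values are not a like comparison. *Star* was the only one of 5 Leydig cell markers with a promoter peak, in both lists, and *Cd68* the only one of 3 blood markers, in cKO alone. The 5 markers called in cKO alone had fold enrichments of 3.11 (*Zbtb16* and *Cd68*), 3.27 (*Kit* and *Wt1*) and 3.93 (*Cldn11*), below the cKO median of 4.91. Those peaks were on 1 row for *Zbtb16* and *Cldn11* and on 2 for *Wt1*. *Sox9*, *Gfra1*, *Stra8*, *Insl3*, *Ptprc* and *Hbb-bs* were among the 11 of 28 markers with a promoter peak in neither list. The part of other cells in the values below was not tested. Round spermatids are marked by the 10 genes themselves, so accessibility in pachytene cells and in spermatids carried over by the gradient cannot be told apart here.

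In spermatids, histones are removed from DNA, transition proteins take their place for a short time, and protamines then compact the sperm genome. At the same time the acrosome, a vesicle of enzymes and membrane proteins that acts at fertilization, spreads over the nucleus, and the tail is built around the axoneme. Many of the genes for these steps are transcribed in round spermatids and their mRNA is stored before translation, and the activator CREM, which recognises cAMP response elements, is known as a regulator of several of them.

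The upstream sequences of the genes that package DNA are shown because the result differs most among them: *Tnp2*, *Prm3* and *Prm2* were in peaks of both lists, *Prm1* in a cKO peak alone and *Tnp1* in none. The sequences were taken from RefSeq (GRCm38.p6), read 5′ to 3′ along the gene and cut where a RefSeq or GENCODE first exon begins. Capitals mark TATAAA, TGACNTCA, or the letters CCAAT on either strand, so that a match on the opposite strand appears as its reverse complement.
*Tnp2* (chr16:10788661-10788905, minus strand): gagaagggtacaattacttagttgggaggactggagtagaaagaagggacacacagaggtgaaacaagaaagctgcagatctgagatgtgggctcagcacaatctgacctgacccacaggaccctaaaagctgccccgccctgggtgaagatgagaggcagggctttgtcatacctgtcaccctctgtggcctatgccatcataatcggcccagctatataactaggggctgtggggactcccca
*Prm3* (chr16:10790915-10791164, minus strand): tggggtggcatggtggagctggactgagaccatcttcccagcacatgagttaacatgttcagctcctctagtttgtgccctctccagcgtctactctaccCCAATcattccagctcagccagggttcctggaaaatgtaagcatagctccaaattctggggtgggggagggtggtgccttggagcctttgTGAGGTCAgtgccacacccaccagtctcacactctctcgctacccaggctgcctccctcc
*Prm2* (chr16:10792106-10792355, minus strand): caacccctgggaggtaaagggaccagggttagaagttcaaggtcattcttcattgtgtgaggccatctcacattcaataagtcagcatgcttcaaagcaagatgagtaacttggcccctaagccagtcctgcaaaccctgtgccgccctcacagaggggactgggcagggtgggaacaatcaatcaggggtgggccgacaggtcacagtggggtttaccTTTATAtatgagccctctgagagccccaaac
*Prm1* (chr16:10796887-10797073, minus strand): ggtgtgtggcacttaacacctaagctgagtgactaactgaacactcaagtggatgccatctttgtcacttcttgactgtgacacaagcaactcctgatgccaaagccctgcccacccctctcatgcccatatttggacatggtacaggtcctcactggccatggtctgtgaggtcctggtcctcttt
*Tnp1* (chr1:73015910-73016149, minus strand): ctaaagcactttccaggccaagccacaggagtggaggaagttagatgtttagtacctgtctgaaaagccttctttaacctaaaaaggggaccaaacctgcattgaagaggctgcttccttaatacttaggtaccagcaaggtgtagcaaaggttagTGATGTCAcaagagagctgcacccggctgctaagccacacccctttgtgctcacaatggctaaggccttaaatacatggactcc

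A promoter was taken from 1000 bp upstream to 100 bp downstream of the start of any protein-coding transcript, and a promoter peak as a peak that shared at least 1 bp with it. In the WT list, 5 of the 10 genes had a promoter peak (*Prm2*, *Prm3*, *Tnp2*, *Acr* and *Spaca1*), beside 49.7% of autosomal protein-coding genes. In the cKO list, 6 of 10 had a promoter peak, beside 56.1% of autosomal genes. The added gene was *Prm1*, the only one of the 10 with a promoter peak in cKO alone, beside 6.57% of autosomal genes. None of the 10 had a promoter peak in WT alone, beside 0.245% of autosomal genes. *Tnp1*, *Acrv1*, *Odf1* and *Akap3* had a promoter peak in neither list. As a group, the 10 genes were thus close to the background in both lists. With the window widened to the gene body and 5000 bp on either side, 6 genes had a peak in WT and 7 in cKO, where 60.7% and 68.4% of autosomal genes did.

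The windows held 5 distinct WT peaks, of 501 to 5745 bp, and 8 distinct cKO peaks, of 438 to 8599 bp. Of the WT peaks, 0 of 5 were without a cKO peak, beside 4.72% of autosomal WT peaks. Of the cKO peaks, 5 of 8 shared no base with a WT peak and are called gained, beside 43.0% of autosomal cKO peaks. The gained peaks had fold enrichments of 3.11 to 5.24. They were not at the strong end of the list, where the 3 shared cKO peaks stood at 13.6 to 32.4.

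**Figure D1:**
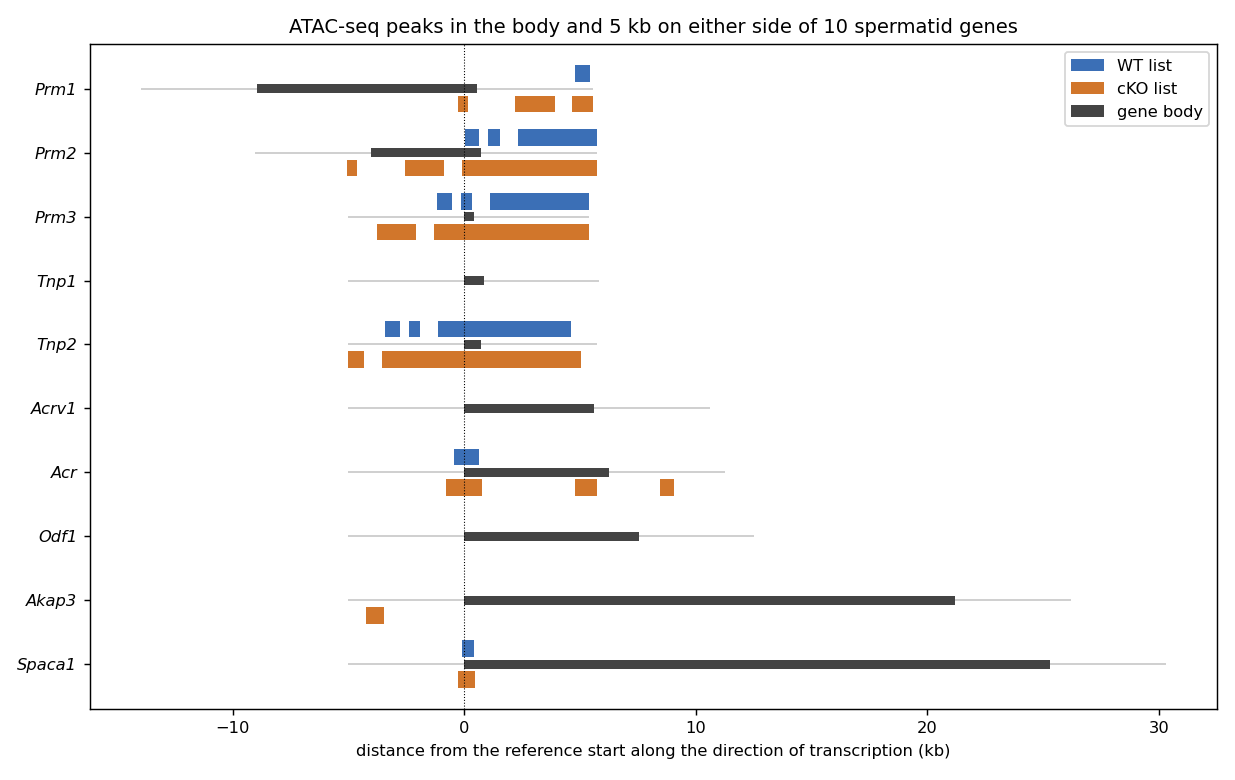
Peaks around the 10 genes. The horizontal axis gives the distance from the reference start in kb along the direction of transcription, black bars the gene bodies, grey lines the windows, blue bars WT peaks and orange bars cKO peaks, cut at the window's ends. *Prm2*, *Prm3* and *Tnp2* lie in the same few peaks, *Acr* and *Spaca1* have a peak over their starts in both lists, and *Tnp1*, *Acrv1* and *Odf1* have none.

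The transition protein gene *Tnp2* and the 3 protamine genes form a cluster on chromosome 16. All are on the minus strand, in the order *Prm1*, *Prm2*, *Prm3*, *Tnp2* along transcription, and *Socs1*, which encodes an inhibitor of cytokine signaling, follows *Tnp2*. From the end of *Tnp2* to the start of the shorter *Prm1* transcript, *Prm1-201*, the cluster spans 8951 bp (chr16:10787936-10796886 in mm10). Peaks covered 2986 bp of it in WT (33.4%) and 6126 bp in cKO (68.4%). The 4 genes were not alike within it: in WT, cover decreased from *Tnp2* towards *Prm1*.

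*Tnp2* (chr16:10787936-10788660) encodes transition protein 2. In WT its promoter and whole body lay in a peak at chr16:10784037-10789781, 5745 bp wide, with a fold enrichment of 17.8, a −log10 q of 85.5 and 4 rows. In cKO the peak over *Tnp2* reached from chr16:10783611 to 10792209, 8599 bp, with a fold enrichment of 32.4, a −log10 q of 228 and 3 rows. Both peaks were among the widest of their lists, wider than 99.4% of WT and 99.5% of cKO peaks. The summit was at the same base in both lists, chr16:10785228, which is 308 bp inside *Socs1* and 2708 bp beyond the end of *Tnp2*. The fold enrichments of 17.8 and 32.4 therefore describe *Socs1* and give no level at *Tnp2*, whose own height the lists do not record. What the lists show for *Tnp2* is that its start was inside a peak that ran 1121 bp upstream of it in WT and 3549 bp in cKO. The WT peak was not unbroken in every row. Upstream of the start, a row ended at chr16:10789368 and another began at chr16:10789689, while the remaining rows ran through. When a promoter peak had to have its centre in the promoter, *Tnp2* had one in neither list.

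*Prm3* (chr16:10790505-10790914) encodes a small protein that, unlike the other protamines, is acidic. In WT it had a peak of its own at chr16:10790563-10791063, 501 bp wide, on 3 rows, with a fold enrichment of 3.38 and a −log10 q of 3.81. This peak covered the start and had its summit 97 bp inside the gene. The summit held 17 fragments (95% exact Poisson interval, 9.9 to 27.2, counting error only), where the lowest WT peak held 13. It was stronger than only 14.1% of WT peaks. At a −log10 q of at least 5 this peak, and with it the WT call of *Prm3*, was lost. In cKO *Prm3* was covered by the wide peak.

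*Prm2* (chr16:10791380-10796134) encodes protamine 2, which is made as a precursor and cleaved. In WT its peak at chr16:10791445-10792083 was 639 bp wide and lay inside the gene on 2 rows, with a fold enrichment of 3.19, a −log10 q of 3.23 and 16 fragments at the summit (9.15 to 26.0). It ended 22 bp short of the start of *Prm2-201*, and was stronger than 9.16% of WT peaks. The WT call of *Prm2* was lost at a −log10 q of at least 5, for peaks on 3 or more rows, and when the peak had to cover the start base. The peak also lay in the promoter of *Prm3*, from 531 bp upstream of that start. In cKO the wide peak covered the *Prm2-201* start. A further, gained cKO peak lay upstream, at chr16:10792975-10794671, with its near edge 870 bp and its summit 2054 bp from that start. It was 1697 bp wide and on 3 rows, had a fold enrichment of 3.60, a −log10 q of 5.44 and 21 fragments at the summit (13.0 to 32.1), and 54.6% of its bases were annotated repeats. The longer transcript of *Prm2* starts at chr16:10796134, close to *Prm1*, and the gained cKO peak at the *Prm1* start, described next, also lay in the promoter of that transcript.

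*Prm1* (chr16:10796326-10805839) encodes protamine 1, the main sperm protamine of most mammals. It had no WT peak at its start, and the nearest, the peak in *Prm2*, lay 4803 bp downstream. In cKO a gained peak at chr16:10796732-10797169 covered the *Prm1-201* start. It was 438 bp wide and on 2 rows, with a fold enrichment of 3.44, a −log10 q of 4.83 and 20 fragments at the summit (12.2 to 30.9). Of its rows, only chr16:10796732-10797010 reached the start, and chr16:10796900-10797169 lay upstream of it. The peak was stronger than 24.9% of cKO peaks. At the WT background the same fold enrichment would correspond to 17.3 fragments, above the lowest WT summit of 13. Shared peaks were, however, mostly higher in cKO, by a median ratio of 1.29 for pairs with a WT value like 3.19 (n = 3042). Whether the site fell below the WT calling limit through that general difference was not tested. The cKO call of *Prm1* was lost at a −log10 q of at least 5, for peaks on 3 or more rows, and when the weakest cKO peaks were left out to make the lists equally long. The start of the longer annotated transcript, *Prm1-202*, 8953 bp upstream, had no peak in either list.

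The cKO peak over *Tnp2*, *Prm3* and *Prm2* overlapped all 3 WT peaks of the cluster. Among autosomal cKO peaks, 222 of 28553 (0.778%) overlapped 3 or more WT peaks. In WT the 3 peaks were separated by gaps of 781 and 381 bp, and in cKO the remaining gaps, of 765 and 2060 bp, lay on either side of the gained peak upstream of *Prm2*.

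**Figure D2:**
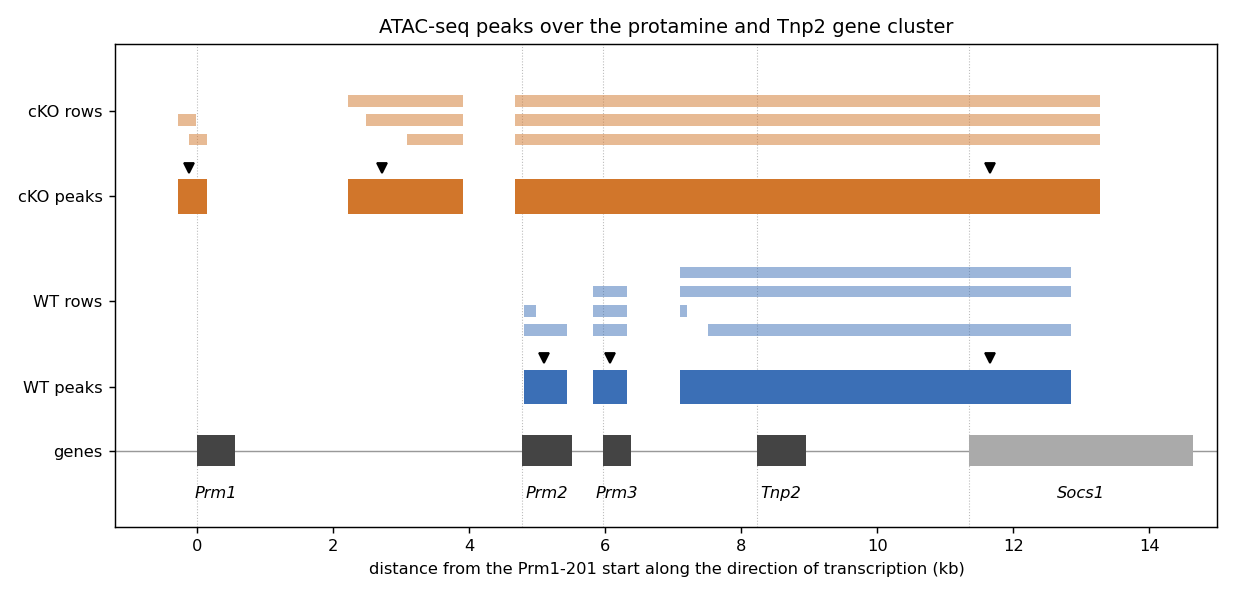
The cluster of protamine genes and *Tnp2*. The horizontal axis gives the distance from the *Prm1-201* start in kb along transcription, dark bars the genes, thick bars the collapsed peaks of WT (blue) and cKO (orange), thin bars the rows they were collapsed from, and triangles the summits, which for the WT peak in *Prm2* and the cKO peak at *Prm1* lie at the mark or to the right of it. The summit of the wide peak is inside *Socs1* in both lists, and the cKO peak of 8599 bp spans the 3 WT peaks.

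*Tnp1* (chr1:73015074-73015909, minus strand), which encodes transition protein 1 and is not part of the cluster, had no peak in its window in either list. The nearest peak was 159 kb from its start in WT and 98.5 kb in cKO. Of autosomal protein-coding genes, 13.3% and 13.7% were farther from a peak, respectively. *Tnp1* therefore stood apart from *Tnp2*, although their products act at the same step.

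Among the acrosome genes, *Acr* and *Spaca1* had the clearest peaks of the 10 genes, and *Acrv1* had none. *Acr* (chr15:89568326-89574585, plus strand) encodes acrosin, the trypsin-like protease of the acrosome. Its WT peak at chr15:89567897-89568978 was 1082 bp wide and on 3 rows, with a fold enrichment of 9.0 and a −log10 q of 29.3. The summit lay 23 bp inside the gene and held 47 fragments (34.5 to 62.5). In cKO the peak at chr15:89567559-89569090 was 1532 bp wide and on 3 rows, with a fold enrichment of 14.9, a −log10 q of 74.7 and 90 fragments at the summit (72.4 to 111). These peaks were stronger than 75.5% of WT and 85.7% of cKO peaks and covered no start but that of *Acr*. The window held 2 gained cKO peaks. The first, at chr15:89573120-89574081, lay in the gene body, was 962 bp wide and had a fold enrichment of 3.60 and 21 fragments at its summit. The second, at chr15:89576800-89577408, lay beyond the end of the gene, was 609 bp wide and had a fold enrichment of 3.11 and 18 fragments, with 45.6% of its bases in annotated repeats. Both were on 3 rows.

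*Spaca1* (chr4:34024874-34050191, minus strand) encodes a membrane protein of the acrosome. In WT the peak at chr4:34049751-34050264 was 514 bp wide and on 3 rows, with a fold enrichment of 7.88, a −log10 q of 23.3 and 41 fragments at the summit (29.4 to 55.6). In cKO the peak at chr4:34049745-34050452 was 708 bp wide and on 3 rows, with a fold enrichment of 13.6, a −log10 q of 64.9 and 82 fragments (65.2 to 102). Both peaks covered the start, and they ended within 6 bp of each other inside the gene. They were stronger than 69.4% of WT and 83.4% of cKO peaks.

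*Acrv1* (chr9:36693220-36698843, plus strand), which encodes the acrosomal antigen SP-10, had no peak in its window in either list. The nearest peak lay 33.0 kb from its start in WT and 32.6 kb in cKO, where 32.9% and 26.0% of autosomal protein-coding genes were farther from a peak.

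Neither of the tail genes had a promoter peak. *Odf1* (chr15:38219203-38226735, plus strand) encodes a protein of the outer dense fibers. Its nearest peak was 20.2 kb away in WT and 19.0 kb in cKO, where 38.4% and 31.8% of autosomal protein-coding genes were farther from a peak. *Akap3* (chr6:126853098-126874308, plus strand) encodes an anchoring protein for protein kinase A in the fibrous sheath. In WT its nearest peak was 85.8 kb away, and 20.8% of autosomal protein-coding genes were farther from a peak. In cKO a gained peak at chr6:126848862-126849643 lay inside the window, 782 bp wide and on 3 rows, with a fold enrichment of 5.24, a −log10 q of 12.5 and 31 fragments at its summit (21.1 to 44.0). This was the strongest of the 5 gained peaks. It covered the start of *Ndufa9*, a gene for a subunit of respiratory complex I, and ended 3455 bp before *Akap3*, so it is no promoter peak of *Akap3*.

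**Figure D3:**
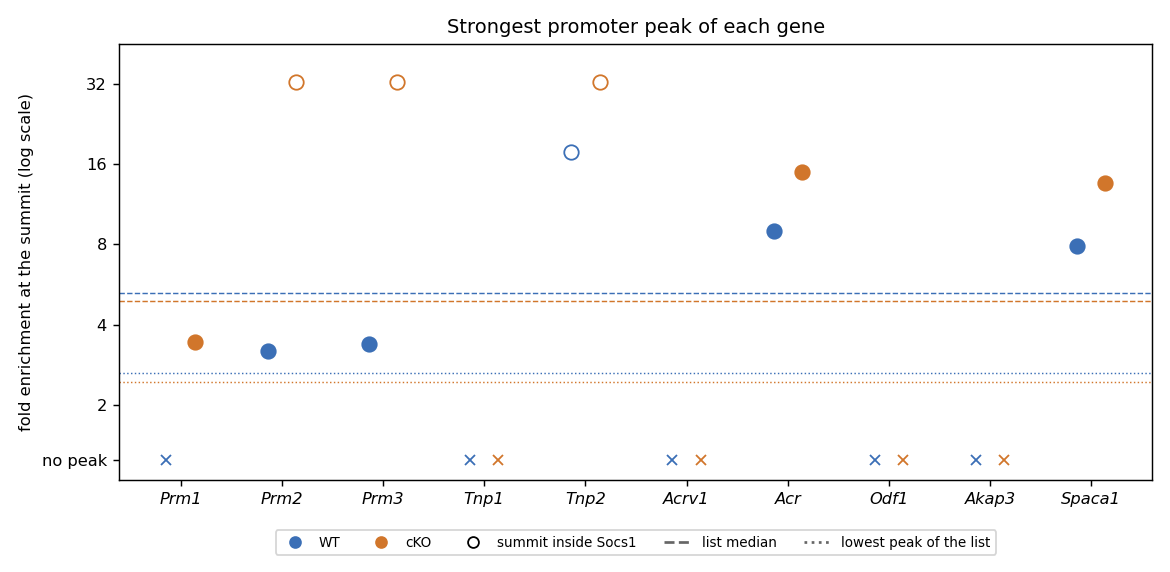
Strongest promoter peak of each gene. The vertical axis gives the fold enrichment at the summit on a log scale, blue and orange points WT and cKO, open points peaks whose summit lies inside *Socs1*, crosses genes with no promoter peak, dashed lines the list medians and dotted lines the lowest peaks. *Acr* and *Spaca1* are above the medians in both lists. The filled points of *Prm1*, *Prm2* and *Prm3* lie between 3.19 and 3.44, where the lowest peaks are at 2.63 in WT and 2.45 in cKO.

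Shared peaks were next compared between the lists. For *Acr* the fold enrichment was 1.65 times higher in cKO and for *Spaca1* 1.72 times higher. Most peaks of the genome moved the same way: among 15221 pairs of autosomal peaks that overlapped only each other, 91.3% had the higher fold enrichment in cKO, with a median ratio of 1.47 (quartiles, 1.23 and 1.68). Pairs with a WT fold enrichment like that of *Acr* had a median ratio of 1.56 (1.38 and 1.74, n = 2677), and those like *Spaca1* 1.52 (1.33 and 1.73, n = 3079). Both genes were inside these quartiles. The wide cKO peak overlapped 3 WT peaks, so it is not itself one of these pairs. Against the widest of them it had a ratio of 1.82, above the quartiles of pairs of like WT fold enrichment (1.46 and 1.71, n = 965). This ratio again describes the summit in *Socs1*.

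More bases of the windows were in peaks in cKO than in WT for the 7 genes with a peak in either list, where 96.8% of such autosomal genes had more bases in cKO. The share of the window in peaks was 64.2% in WT and 86.6% in cKO for *Tnp2*, 52.0% and 80.7% for *Prm3*, and 30.8% and 54.0% for *Prm2*. These windows overlap, so the values are not independent. The share was 3.27% and 15.5% for *Prm1*, 6.65% and 19.1% for *Acr*, 1.46% and 2.0% for *Spaca1*, and 0% and 2.51% for *Akap3*. In these respects the genes followed the lists as a whole.

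Promoters of the 10 genes were poor in CpG. CpG content was scored over 500 bp on either side of the reference start as the ratio of observed to expected CpG. A ratio of at least 0.75 with a GC content of at least 55% was called high, a ratio under 0.48 low, and the rest intermediate. A total of 9 of the 10 were low, from 0.0233 at *Acrv1* to 0.397 at *Tnp1*, and *Spaca1* was intermediate, at 0.584 with a GC content of 55.5%. Of 9119 autosomal protein-coding genes of the low class, 16.3% had a promoter peak in WT and 21.8% in cKO. Of the intermediate class, 68.4% and 77.1% did, and of the high class, 85.5% and 90.6%. Beside this, 4 of the 9 low-CpG genes had a promoter peak in WT (*Prm2*, *Prm3*, *Tnp2* and *Acr*) and 5 in cKO. Of these, 3 in WT and 4 in cKO are neighbours in the cluster, so they are not separate cases. In cKO, 1 peak covered the starts of *Tnp2*, *Prm3* and *Prm2*. In WT each of the 3 had a different peak, and that in *Prm2* also lay in the promoter of *Prm3*. Outside the cluster, 1 of 5 low-CpG genes, *Acr*, with a ratio of 0.174, had a promoter peak. *Tnp1*, with the highest ratio of the 9, had none, so CpG content did not order these genes by the presence of a promoter peak.

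**Figure D4:**
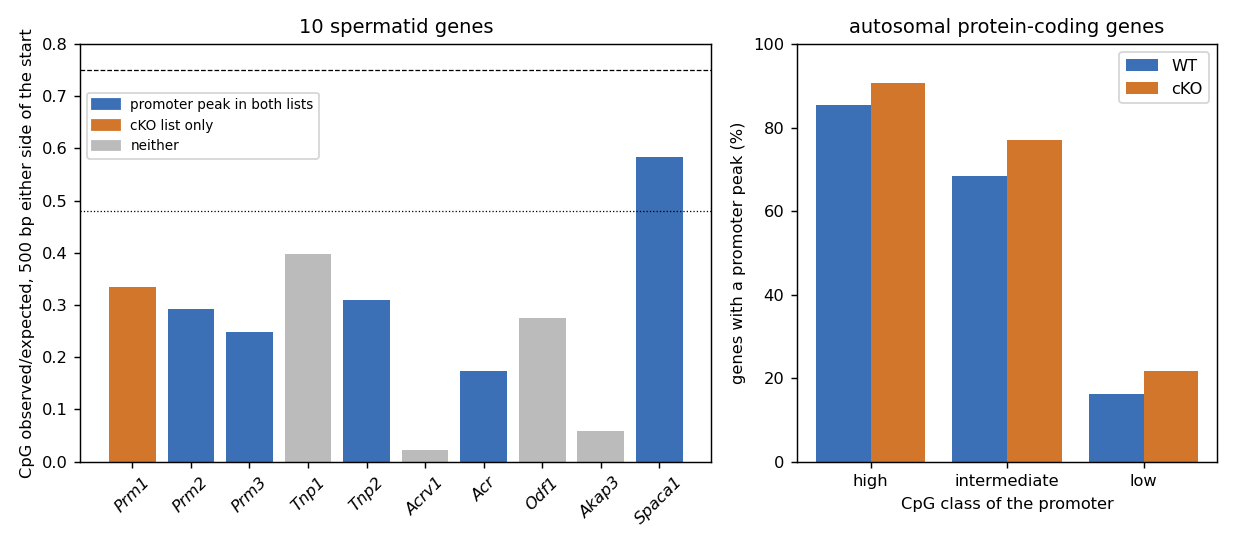
CpG content and promoter peaks. Left, bars give the observed-to-expected CpG ratio at the 10 starts, coloured by the lists in which the promoter had a peak, with lines at 0.48 and 0.75. Right, bars give the percent of autosomal protein-coding genes with a promoter peak by CpG class, 16.3% in WT and 21.8% in cKO for the low class, to which 9 of the 10 genes belong.

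Short motifs were searched on both strands from 250 bases before to 50 after the RefSeq start, which was given for 8 of the 10 genes (not *Acr* and *Odf1*). The full cAMP response element, TGACGTCA, was in 0 of 8 and in 2.36% of 19174 autosomal promoters. Its first 5 letters, TGACG, were in 1 (*Spaca1*) and in 24.4% of all. TATAAA was in 1, *Prm2*, with its first base 31 bases before the start, and in 12.1% of all. CCAAT was in 2 (*Prm3* and *Akap3*) and in 37.5% of all. GTTGCC, letters of the RFX site, was in 0 and in 12.3% of all. AACNG, the core of the MYB site, was in 4 and in 78.6% of all. TGACNTCA, which leaves 1 base of the response element free, was added after the sequences were seen. It was in 4, *Prm1*, *Prm3*, *Tnp1* and *Akap3*, and in 8.06% of all. In the sequences above it stands in capitals for *Prm3*, 60 bases before the start, and for *Tnp1*, 94 bases before it. In *Prm1* it reaches the annotated first exon and is not printed. Of these 4 genes, *Prm3* had a promoter peak in both lists, *Prm1* in cKO alone, and *Tnp1* and *Akap3* in neither. TGACGTCA is counted within TGACG and TGACNTCA as well.

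A wider list of 25 spermatid genes was read in the same way. In WT, 13 of the 25 had a promoter peak, and in cKO 14, again near the share of all autosomal genes. All of these were among its 24 autosomal genes, since *Akap4*, which lies on chromosome X, had no promoter peak. By role, 2 of 5 nuclear genes had one in both lists, 6 of 12 genes of the tail and cytoplasm in both lists, and 5 of 8 acrosome genes in WT and 6 in cKO. *Izumo1*, which encodes the sperm protein that binds the egg receptor, was the only gene whose call differed. Of autosomal genes, 6.57% had a promoter peak in cKO alone. The *Izumo1* cKO peak was 504 bp wide, with a fold enrichment of 4.42 and a −log10 q of 8.77. It lay 13 bp from the start without covering it, and was stronger than 44.7% of cKO peaks.

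The highest promoter fold enrichments of the wider list in WT were at *Odf2*, another outer dense fiber gene, with 20.6 in WT and 37.1 in cKO, and at *Spata6*, needed for the connection of head and tail, with 12.9 and 18.2. *Tssk6*, a testis kinase gene, followed with 12.0 and 20.5, in a peak that also covered the starts of *Ndufa13* and *Yjefn3*. *Acrbp*, for the proacrosin-binding protein, had 9.0 and 14.7, in a peak shared with the start of *4930557K07Rik*, and *Cabyr*, for a calcium-binding protein of the fibrous sheath, had 9.0 and 13.4. *Hils1*, *H1fnt*, *Spem1*, *Spaca3*, *Spaca7*, *Odf3*, *Akap4*, *Smcp*, *Tssk1*, *Tssk2* and *Ropn1* had a promoter peak in neither list.

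The wider list was also read by CpG class. Of its 24 autosomal genes, all 4 of the high class and all 4 of the intermediate class had a promoter peak in both lists. Among all autosomal protein-coding genes, 85.5% of the high and 68.4% of the intermediate class had one in WT, and 90.6% and 77.1% in cKO. Of the 16 of the low class, 5 had one in WT and 6 in cKO, beside 16.3% and 21.8% of all autosomal protein-coding genes of that class. *Oaz3* is counted among them through another start. Its reference start, where CpG was scored, lay 6634 bp from the nearest peak in both lists.

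**Figure D5:**
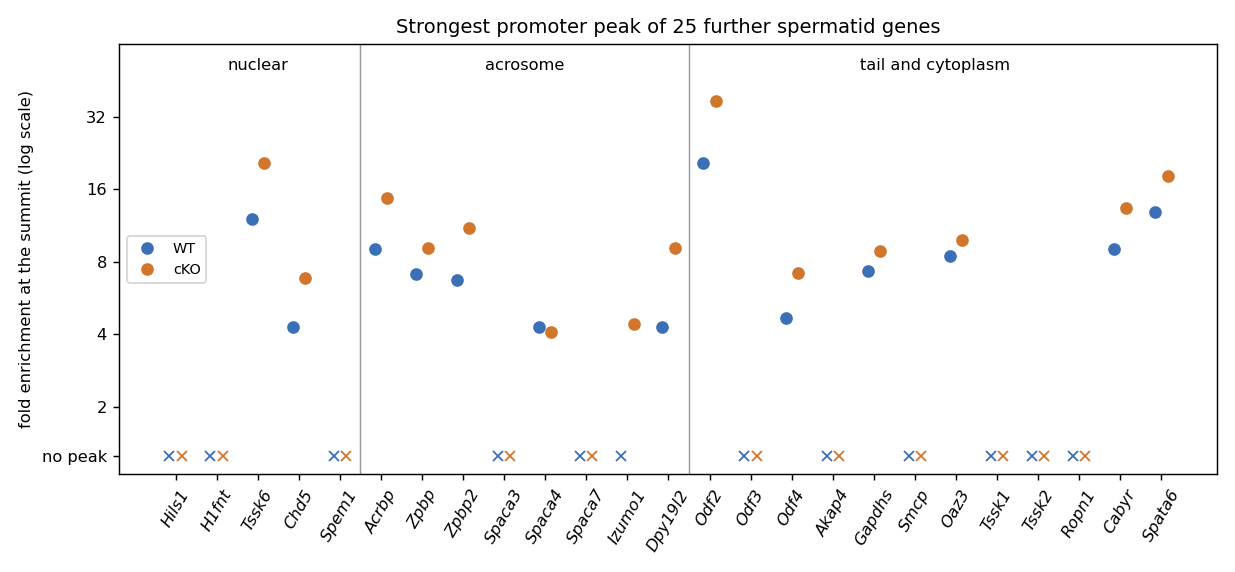
Strongest promoter peak of 25 further spermatid genes, grouped by role. The vertical axis gives the fold enrichment at the summit on a log scale, blue and orange points WT and cKO, and crosses genes with no promoter peak. *Odf2* is highest, at 20.6 in WT and 37.1 in cKO, and *Izumo1* alone has a point in cKO and a cross in WT.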

How the data were processed

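ATAC-seq was measured in 4 *Arid1a* WT and 4 *Arid1a* cKO libraries, grouped by the genotype labels. Per the labels and methods, the authors trimmed reads with Trim Galore, aligned them to mm10 with Bowtie2, removed duplicates, ran MACS2 on each library with 1 constant background, took out blacklisted peaks and intersected the replicates. No filter on mapping quality was stated. The deposited lists give an interval, a peak name, a score, fold enrichment (a linear ratio), −log10 p, −log10 q and the summit offset. The deposited score is 10 times the −log10 q. Which library was the reference is not given in the sources used here.

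Rows were collapsed by name (Python 3.11.15, pandas 2.3.3). Background and summit pileup were recovered from the grid of fold values, and pileups carry exact Poisson intervals (scipy 1.17.1) that cover counting error only; the depth of the other libraries is unknown. Genes and starts came from GENCODE vM21 (GRCm38), and CpG content and repeat masking from the reference sequence. The reference start is that of the best supported protein-coding transcript. Pairs of like fold are those within 1.2 times of the gene's WT value. Collapsing and overlap were checked on simulated data. No test was run, because each genotype has 1 list.

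The 10 genes and the wider, marker and motif lists were chosen with earlier results of these data known. All 10 genes are named. From the wider list, genes whose call differs and the 5 with the highest WT fold are described. Alternatives were −log10 q minimums, rows per peak, equal list lengths, merged rows, other promoters, starts and windows. Per-library peaks and signal tracks were not analysed here.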

Additional observations from a re-analysis of the deposited data

How the results depend on the processing

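The 14 alternative settings gave 132 values, of which 94 stayed within 1.5 times a count or did not move a share beyond its interval, and 38 moved. *Acr* and *Spaca1* had a promoter peak in both lists, and *Tnp1*, *Acrv1*, *Odf1* and *Akap3* in neither, in every setting run for promoter peaks. The calls of *Prm1*, *Prm2*, *Prm3* and *Tnp2* depended on the setting. A −log10 q of at least 5 left 3 distinct WT peaks, 3 gained cKO peaks and 3 genes with a WT promoter peak, since the WT peaks of *Prm2* and *Prm3* and the cKO peak of *Prm1* fell out, so that 2 genes had a promoter peak in cKO alone, and 47.4% of autosomal genes had one in WT and 53.6% in cKO. A −log10 q of at least 10 gave the same promoter calls, 3 WT peaks, 4 cKO peaks and 1 gained peak, with 41.9% and 49.7% of autosomal genes. Equal list lengths, which remove the weakest cKO peaks, left 4 cKO peaks and 1 gained peak, 0 genes with a promoter peak in cKO alone and 52.2% of autosomal genes in cKO. Peaks on 3 or more rows gave 46.9% and 54.5%, without the WT call of *Prm2* and the cKO call of *Prm1*. A peak that covers the start base removed the WT call of *Prm2*, with 2 genes in cKO alone, 47.6% and 54.2%. A peak centre in the promoter gave 3 genes in WT, 2 in cKO alone (*Prm1* and *Prm2*, both through the peak at the *Prm1* start) and 1 in WT alone (*Prm3*), 36.6% and 39.5% of autosomal genes, and 6 genes of the wider list in each list. Promoters of 500 bp on either side gave 50.5% and 56.8%, those of 3000 bp 52.8% and 59.7%, the starts of every transcript 51.1% and 57.6%, and the outermost start 45.7% and 52.0%, the last without the WT call of *Prm2* and the cKO call of *Prm1*. The gene body alone held 3 gained peaks.

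No paired analysis was possible because each genotype was given as 1 list over its 4 libraries, and for the same reason no library could be left out. The lists state that a peak was called, not that a promoter without one was closed. Weak peaks such as those of the protamine genes, with 16 to 21 fragments at the summit, are not far above the lowest that were called. Those held 13 fragments in WT and 14 in cKO.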
